A study of Rattus norvegicus with 16 samples.

Results

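The fetal SCN of Group B litters was compared between subjective night and subjective day. The SCN, the suprachiasmatic nuclei of the hypothalamus, hold the central circadian clock of the adult. Before birth the SCN is still immature, and rhythmic signals of the mother, such as her feeding, hormones and temperature, can reach it. Time-restricted feeding gives a mother without an SCN a daily rhythm of food intake, and nutrient and hormone levels follow meals. The comparison asks which transcripts of the fetal SCN differed between the night, which began with the onset of food-related activity of the mothers, and the day.

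Of the 16 libraries of the series, 8 belong to Group B, with 4 from subjective night (CT12, CT15, CT18 and CT21) and 4 from subjective day (CT0, CT3, CT6 and CT9). They were chosen by mother group and circadian time alone. Group B fetuses came from Wistar rats that had received an SCN lesion in pregnancy and then had food for a limited part of each day. The other 8 libraries are Group A, from Wistar mothers with sham surgery and ad libitum feeding. Both groups were kept in constant darkness, and in Group B the start of food-related activity was set as CT12, so that by the methods of the study the food period begins near CT12 and ends before CT21. Each library is a pool of punched fetal SCN from 1 litter, and a new litter was used at every time. The labels give 8 pooled SCN for every library, while the RNA-Seq methods of the study give a range for Group B. The 4 libraries of night or day are therefore not repeats of 1 time, and their spread holds time, litter and technical variation together. The labels give embryonic age 17 for all samples, while the methods of the study give a later age that spans about a day over the collection. Fetal age and circadian time cannot be told apart if the litters were collected in the order of the times. Genes are listed by Ensembl identifier, and no table at hand links these to symbols, so the tissue could not be checked against marker genes, and gene functions are not given.

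The total count per Group B library ranged from 10047500 to 18738585 (median 11028013), with the deepest library at CT9. Night libraries held 11780000 ± 1849000 counts and day libraries 13060000 ± 3921000 (SD, n = 4 each), a difference within the spread between libraries (two-sided exact permutation test, p = 0.657, smallest possible 0.0286). The 10 most abundant genes took 15.21% ± 0.40 of the counts of filtered genes at night and 15.2% ± 0.63 by day (SD, n = 4 each, exact permutation test, p = 0.943). Between 18327 and 18809 genes had a count.

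Across the 13685 genes that passed the filter on low counts (at least 1.5 CPM, counts scaled to a common library size, in at least 3 of the 16 libraries), whole libraries did not separate by night and day. The mean Pearson correlation of log2 CPM was 0.9825 between night libraries, 0.9783 between day libraries and 0.9804 between a night and a day library. The mean within night and within day exceeded the mean between them by 3.02e-05, a difference reached in 13 of the 35 possible divisions of the 8 libraries (one-sided exact permutation test, p = 0.371). The CT3 library stood apart, with a mean correlation of 0.9746 with the other 7, against 0.9797 to 0.9825 for the others. Without it, the mean correlation was 0.9818 between day libraries and 0.9824 between a night and a day library, so day libraries still did not group together. Along the first principal component (31.1% of the variance), scores ran from -26.5 at CT9 to 38.4 at CT3, both day libraries. The night libraries lay between -20.4 at CT12 and 8.14 at CT18.

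Between night and day, 10 genes passed the test, with differences of 1.24-fold to 1.57-fold. In edgeR's quasi-likelihood test at a Benjamini-Hochberg adjusted p of 0.05 or less, 10 of 13685 genes (0.0731%) were called, 5 higher (0.0365%) and 5 lower (0.0365%) at night. The lowest adjusted p was 0.0156, the highest among the called genes was 0.046, and the next gene had 0.0527. All 10 were well measured, with a mean of 16.4 to 288 normalized CPM, where the median over all genes tested was 23.6. In each of the 10, every night library lay on the same side of every day library, a pattern found in 762 of all genes tested (5.57%), 432 (3.16%) with night above day and 330 (2.41%) with night below. The number of called genes moved with the libraries used. It was 0 without the CT15, the CT18 or the CT21 library, 1 without CT0 and 3 without CT3, while 46 genes were called without CT9 and 15 without CT6 or CT12. The log2 differences of the 2 genes with the lowest p in each direction ranged, with each library left out in turn, from 0.28 to 0.37 in ENSRNOG00000007808, 0.53 to 0.64 in ENSRNOG00000008169, -0.60 to -0.50 in ENSRNOG00000011320 and -0.71 to -0.57 in ENSRNOG00000025209. In the same order, these genes were still called in 3, 2, 5 and 4 of the 8 fits. DESeq2 called 70 genes (0.512%), with the same 10 among them, and limma-voom called 0, with 692 genes higher and 478 lower at an unadjusted p below 0.05.

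**Figure D1:**
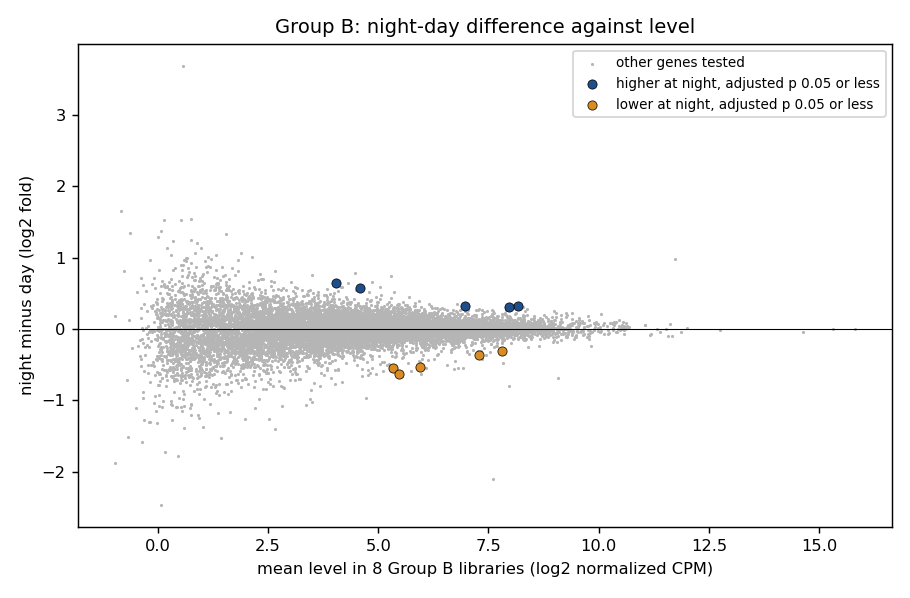
Night minus day difference on the log2 scale (vertical axis) against the mean normalized CPM of the 8 Group B libraries on the log2 scale (horizontal axis), 1 point for each of the 13685 genes tested. The 5 genes higher at night (blue) and 5 lower (orange) that passed the test lie at middle to high levels. Most of the widest differences lie at low levels, where no gene passed.

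The gene higher at night with the lowest p was ENSRNOG00000007808. Its normalized CPM was 314 at CT12, 320 at CT15, 321 at CT18 and 328 at CT21, against 229 at CT0, 243 at CT3, 277 at CT6 and 272 at CT9. All night libraries were above all day libraries, and they differed little among themselves (320.7 ± 5.7 at night, 255 ± 23.1 by day, SD, n = 4 each). The difference was 0.33 on the log2 scale (standard error 0.057, 1.26-fold, edgeR adjusted p = 0.0382).

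ENSRNOG00000008169 had a larger difference at a lower level. Its normalized CPM was 29.6 at CT12, 29.2 at CT15, 27.2 at CT18 and 28.7 at CT21, against 21.1 at CT0, 21.4 at CT3, 17.2 at CT6 and 17.3 at CT9. The highest value of all, at CT12, stood next to the lowest values, at CT6 and CT9, and the 4 night libraries lay close together. Night libraries held 28.7 ± 1.07 and day libraries 19.3 ± 2.32 (SD, n = 4 each), a log2 difference of 0.58 (standard error 0.10, edgeR adjusted p = 0.0382).

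In the other 3 genes that rose, the lowest night value was at CT12 and the highest at CT21. In the lowest of them by level, normalized CPM went from 12.9, 13.4, 12.1 and 12.6 at the day times to 17.4, 19.9, 19.3 and 23.5 at the night times, a log2 difference of 0.65 (standard error 0.12), the largest of the 10. The other pair lay near 110 and 224 normalized CPM by day and near 139 and 277 at night. Their log2 differences were 0.33 and 0.31.

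ENSRNOG00000011320 fell at night and had the lowest p of all genes. Its normalized CPM was 67.8 at CT0, 71.6 at CT3, 73.0 at CT6 and 78.7 at CT9, and 56.8 at CT12, 46.6 at CT15, 51.5 at CT18 and 45.7 at CT21. The highest value was at CT9, next to the value at CT12, which was below every day library. Its level was 72.8 ± 4.54 by day and 50.1 ± 5.09 at night (SD, n = 4 each). It fell by 0.54 on the log2 scale (standard error 0.076, edgeR adjusted p = 0.0156).

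ENSRNOG00000025209 was highest at CT0 and, among the day libraries, lowest at CT9. Its normalized CPM was 60.4 at CT0, 59.5 at CT3, 50.1 at CT6 and 44.9 at CT9, then 35.9 at CT12, 35.2 at CT15, 31.7 at CT18 and 35.9 at CT21. The night values were close together (34.7 ± 1.99, SD, n = 4), while the day values spread more widely (53.7 ± 7.52, SD, n = 4). This gene fell by 0.63 on the log2 scale (standard error 0.093, edgeR adjusted p = 0.0156), or 1.54-fold, the largest decrease of the 5.

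The other 3 genes that fell had log2 differences of -0.55, -0.36 and -0.31. Their mean normalized CPM was 48.1, 176 and 246 by day and 32.8, 138 and 199 at night. Their highest libraries were CT3 for 2 of them and CT9 for the other, and their lowest were CT15, CT21 and CT12.

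**Figure D2:**
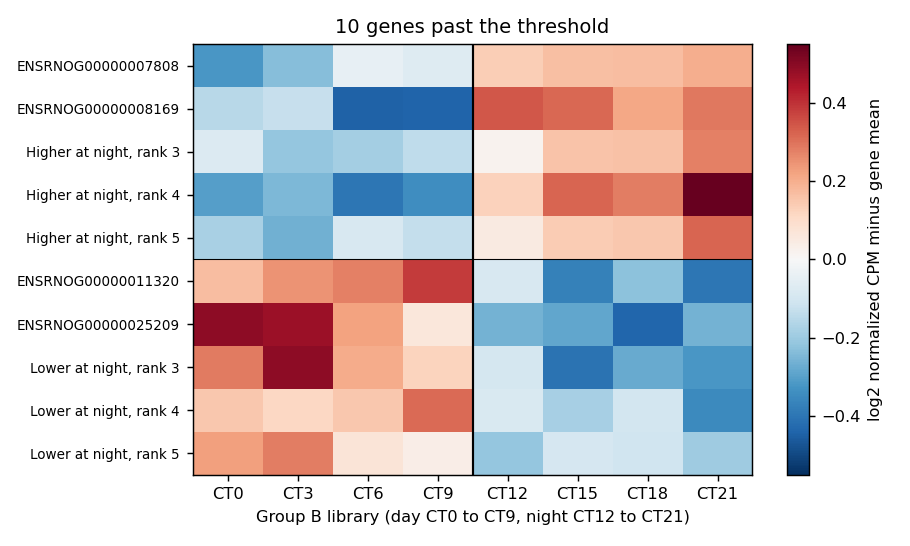
Log2 normalized CPM of the 10 called genes in the 8 Group B libraries, each gene relative to its own mean over the 8 libraries (color scale, log2 units). The vertical line divides day libraries (left) from night libraries (right), and the 5 genes of the upper block and the 5 of the lower block change color at that line, with CT21 the highest library in 4 of the upper 5.

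Beyond the called genes, the difference between night and day, each taken over 4 times, was small. The study reports that transcripts rhythmic only in Group B mostly peaked around CT21 to CT3, across the border of night and day. For transcripts rhythmic in both groups it gives most peaks between CT15 and CT21, within the night, with fewer in the opposite phase. How the timing of either set bears on this comparison was not tested. Of all genes tested, 85% differed by less than 1.2-fold. The median log2 difference was -0.0037, a value that the scaling of the libraries holds close to no difference. An unadjusted p below 0.05 was found for 1239 genes (9.05%), of which 722 (5.28% of all genes tested) were higher at night and 517 (3.78%) lower. At an adjusted p of 0.1 or less there were 46 genes by edgeR, 32 higher and 14 lower at night. CT21 was the highest library for 38% of the 722 genes, followed by CT15 with 25.1%, CT12 with 20.1% and CT18 with 16.6%, where an even spread over the 4 night libraries would give 25%. CT3 was the lowest library for 39.3% of them and CT0 for 30.7%. For the 517 genes in the other direction, CT3 was the highest library for 36.4% and CT21 the lowest for 32.7%. Over all genes tested, CT3 was the highest library for 16.4% and the lowest for 14.8%, and CT21 for 13.8% and 13.7%, the largest shares of the 8 libraries in the highest position. These shares are spread over 8 libraries. Those of the 722 and 517 genes fall almost wholly on 4, so the sizes cannot be compared directly. Over all genes too, CT3 led the day libraries and CT21 the night libraries in both positions.

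The share of genes with an unadjusted p below 0.05 went up with level. It was 4.29% among 2587 genes with a mean under 5 CPM, 8.28% among 6911 genes from 5 to 50 CPM and 13.3% among 4187 genes over 50 CPM. The median size of the log2 difference went the other way, from 0.23 through 0.095 to 0.057. Of 65 genes with a fitted difference above 2-fold, 0 passed the edgeR test, and their median level was 1.47 CPM.

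A fitted difference above 1.5-fold without passing the test was found for 6 genes over 50 CPM, a set looked at after the values were seen. The widest had 807 normalized CPM at CT9 and between 12.9 and 276 in the other 7 libraries of Group B. Its fitted night level was 4.26-fold below day (edgeR adjusted p = 0.649), and the CT9 library alone held 2.93 times the next highest value. Another gene had a mean of 4483 normalized CPM at night and 2261 by day. It was highest at CT18 with 5945 and lowest at CT0 with 1176, and its adjusted p was 0.487. In Group A its log2 difference had the opposite sign, -1.16, with values from 721 to 4582. The 4 others were all highest at CT3, the library that stood apart, and the most abundant of them had 1615 normalized CPM there and 142 to 721 elsewhere in Group B. Over the 16 libraries these 4 genes varied together, with pairwise correlations of log2 CPM from 0.93 to 0.98, given as a description, since they share libraries and were chosen alike. In Group A all 6 genes of the set were highest at CT6. What these genes mark, and their part in the position of the CT3 library, was not tested.

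Group A litters were used to ask whether the differences between night and day were particular to Group B. ENSRNOG00000007808 had 274 ± 28.7 normalized CPM at night and 244 ± 14.2 by day in Group A (SD, n = 4 each), with overlapping libraries. Its log2 difference was 0.17, against 0.33 in Group B. For ENSRNOG00000008169 the Group A values were 22.4 ± 3.44 and 19.8 ± 1.84 (SD, n = 4 each), a log2 difference of 0.18 against 0.58. ENSRNOG00000011320 was 63.0 ± 1.57 at night and 83.4 ± 12.7 by day in Group A (SD, n = 4 each), and here the libraries did not overlap. Its log2 difference was -0.40, against -0.54 in Group B. ENSRNOG00000025209 differed least of these in Group A, with 47.2 ± 2.44 at night and 51.3 ± 4.56 by day (SD, n = 4 each) and a log2 difference of -0.12 against -0.63.

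The 10 called genes all had the same direction in Group A, whose litters took no part in choosing them. Over all genes tested, 58.2% had the same direction in both groups. In 5 of the 10 the unadjusted edgeR p in Group A was below 0.05, a level reached by 7.07% of all genes, and in 2 of the 10 the Group A libraries did not overlap, as in 4.01% of all genes. The adjusted edgeR p in Group A was above 0.05 for each of the 10, the lowest being 0.0838. The test called 1 gene in Group A in all (0.00731%), with a lowest adjusted p of 0.0227. The difference was smaller in Group A for 9 of the 10, with a median of 0.17 in the Group B direction against 0.45 in Group B. The genes were chosen on the Group B values, so the larger size there is in part fixed by the choice. Of the 1239 genes with an unadjusted p below 0.05 in Group B, 926 (74.7%) had the same direction in Group A, where their median log2 difference was 0.070 for those higher at night in Group B and -0.069 for those lower.

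The difference between the groups was tested directly over all 16 libraries. By edgeR's quasi-likelihood test of the night minus day difference of Group B minus that of Group A, 0 genes passed (0%, lowest adjusted p = 0.433), and 560 (4.09%) had an unadjusted p below 0.05. DESeq2 called 1 gene. Of the 10 genes, 3 had an unadjusted p below 0.05 in this test, all with an adjusted p of 0.998. The 10 were chosen on Group B values that also enter this test. Their unadjusted p and intervals are therefore in part fixed by the choice, and no conclusion is drawn from them. ENSRNOG00000025209 had the lowest p of the 10 (0.000382, edgeR, unadjusted), with a Group B minus Group A difference of -0.51 on the log2 scale (95% interval -0.77 to -0.25), and ENSRNOG00000008169 had 0.40 (0.073 to 0.72). For ENSRNOG00000007808 the interval was -0.032 to 0.36 and for ENSRNOG00000011320 it was -0.39 to 0.12, and both intervals include 0. After adjustment, a difference between the groups was shown for 0 of the 10.

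**Figure D3:**
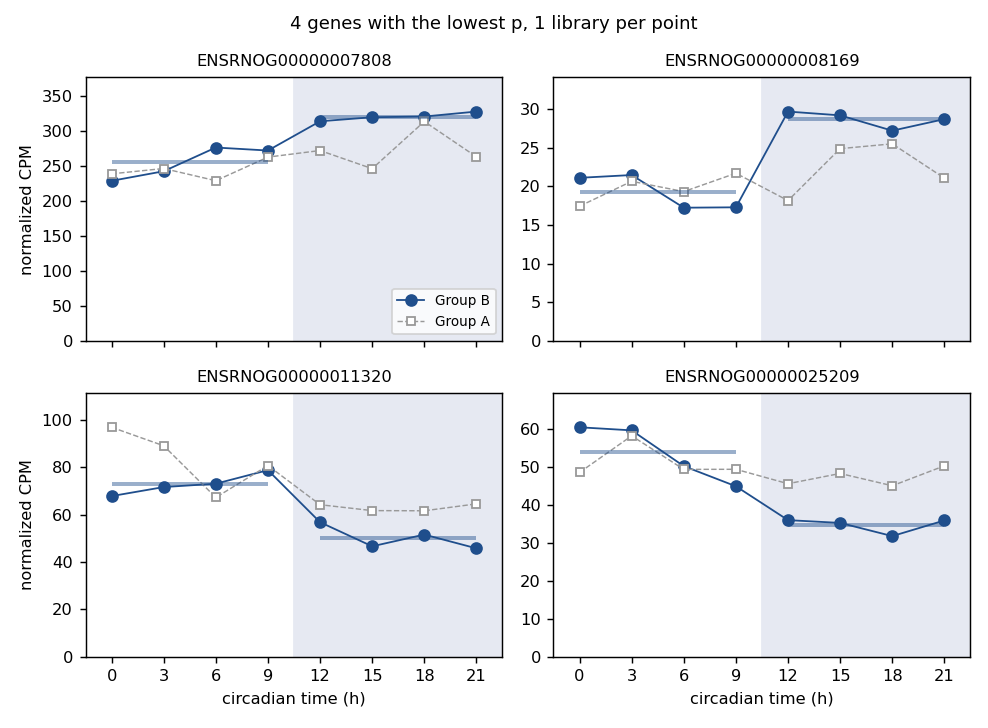
Normalized CPM (vertical axes, from 0) against circadian time in hours for 4 genes, the 2 with the lowest p in each direction. Filled circles are Group B libraries and open squares Group A libraries, 1 library per point. Horizontal bars are the Group B means of day and night, and the shaded area is subjective night. Group B values were scaled within Group B and Group A values over all 16 libraries. On these scales ENSRNOG00000025209 lies at 31.7 to 35.9 in the Group B night libraries, below all of its Group A libraries.

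**Figure D4:**
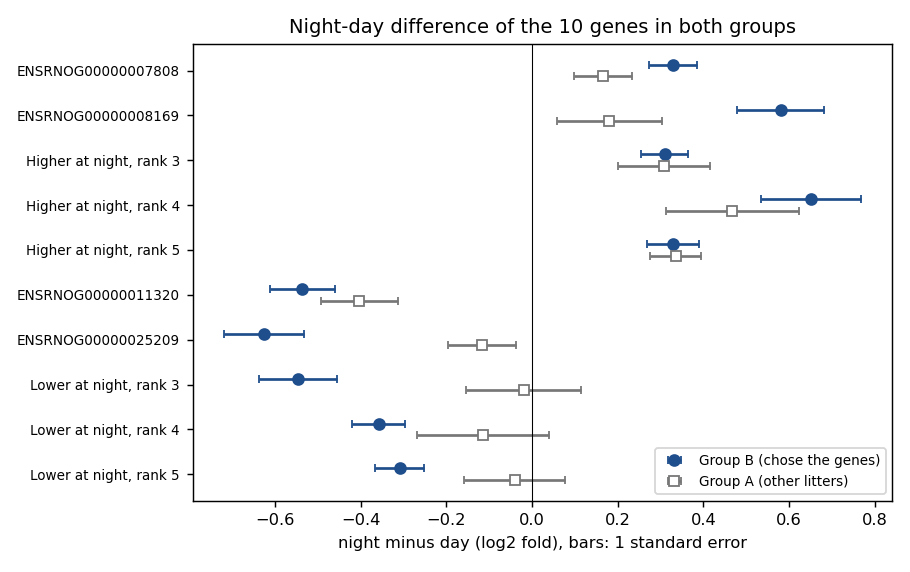
Night minus day difference on the log2 scale (horizontal axis, bars 1 standard error from edgeR) of the 10 called genes in Group B (filled circles) and Group A (open squares). All 10 Group A points lie on the same side of 0 as the Group B points, and 9 of them lie closer to 0.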

How the data were processed

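RNA-Seq of pooled fetal SCN was available as a table of counts per Ensembl gene. The authors deposited raw counts, made from rRNA-depleted, polyA-enriched stranded libraries mapped to rn6 with HISAT2 2.1.0, and Salmon and StringTie are the counting tools named. Values were neither normalized nor filtered by the authors. Of 32883 genes, 13685 (41.6%) reached 1.5 CPM in 3 or more of the 16 libraries, as in the study, and were tested. The study also required a unique gene ID, which was not applied here.

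Night and day were compared with edgeR 4.0.16 in R 4.3.3 (TMM normalization, robust quasi-likelihood fit, Benjamini-Hochberg adjustment) on the 8 Group B libraries. The difference between groups was fitted over all 16. Normalized CPM are CPM after TMM scaling, made within Group B for its own values and over 16 libraries for Group A. Standard errors are the log2 difference over the root of the F statistic. The common biological coefficient of variation was 12.2%. DESeq2 1.42.0 and limma 3.58.1 served as alternatives, together with other factors and filters, thinning and omission of libraries. Figures were drawn with matplotlib 3.10.9.

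On counts simulated for this comparison over 13685 genes, 11% of 200 genes with a log2 change of 0.3 were recovered, 44.5% at 0.5 and 78.5% at 1, with 6, 6 and 11 false calls. At 0.3 this was 22 true calls beside the 6 false ones. Each size was simulated once, with independent counts that hold no course over time. The comparison and its rules were chosen with earlier results of these data known. Genes named were to be the 12 with the lowest p in each direction and members of gene lists, but without symbols 2 identifiers in each direction are printed, and the gene lists, marker lists and proteomic data were not analysed here.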

Additional observations from a re-analysis of the deposited data

Results flagged for a closer look

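In 32 comparisons of 4 libraries each (library measures and the 10 called genes, night and day of Group B), 1 library lay far from the other 3, where chance alone would give 1.6. The CT12 library had a total count of 14540000, where the next highest night library had 11130000 and the lowest 10570000. Without this library 7 genes were called higher and 8 lower at night, of which 4 and 4 were among the 5 and 5 called with all libraries.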

How the results depend on the processing

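The median of all genes tested stayed between -0.0065 and 0.0017, where the scaling of the libraries holds it close to no difference. The direction of the 4 printed genes held in all 17 alternatives. These genes were chosen by lowest p in the same libraries, with night and day not overlapping, so this was largely fixed by the choice. Their adjusted p passed 0.05 in 9 alternatives for ENSRNOG00000007808, 7 for ENSRNOG00000008169, 13 for ENSRNOG00000011320 and 11 for ENSRNOG00000025209. Counts of called genes moved widely from 5 higher and 5 lower. DESeq2 called 46 and 24, and limma-voom called 0 and 0 (692 and 478 at an unadjusted p below 0.05). A fit of all 16 libraries called 0 higher (655 at an unadjusted p below 0.05) and 2 lower. Upper-quartile factors gave 8 lower, a minimum of 10 counts in every library 9 lower, and thinning to the smallest total 2 higher. Without both CT0 and CT12, 1 and 1 were called. Without a filter, 97 and 78 were called, 174 of these 175 also being genes that pass the filter. There the fitted prior degrees of freedom of the spread were infinite for the median gene, against 12.7 with the filter, so that most genes had no spread of their own.

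With each library left out in turn, 0 to 27 genes were higher and 0 to 19 lower at night. Both counts were 0 by edgeR without CT15, CT18 or CT21, where 667, 655 and 517 genes were higher and 491, 511 and 437 lower at an unadjusted p below 0.05. Without CT18, the log2 differences of the 4 printed genes were 0.33, 0.60, -0.55 and -0.59, against 0.33, 0.58, -0.54 and -0.63 with all libraries. Without CT0, 0 and 1 were called, without CT3 1 and 2, without CT6 7 and 8, and without CT9 27 and 19. The cause was not tested. For the difference between the groups, 0 genes were called by edgeR under all 20 alternatives with that tool, including circadian time as a replicate block (0 called, lowest adjusted p = 0.487), and DESeq2 called 1. Greater depth than that deposited was not tested.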
